A study of Mus musculus with 3 samples.

Results

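The constant regions of the immunoglobulin heavy chains (Ighm, Ighd, Igha, Ighg1, Ighg2b, Ighg2c, Ighg3 and Ighe), the constant region of the kappa light chain (Igkc) and the joining chain Jchain were followed across mouse pancreas leukocytes. These 10 genes were fixed by name, out of 31053 genes in the matrices, and all 10 were matched by gene ID. Live CD45+ cells had been sorted from pancreas, and a single droplet library with 3′ capture was made for each of 3 groups. The pancreas came from PBS controls (PBS) or was taken 3 days (3-day WGP) or 7 days (7-day WGP) after an injection of WGP. WGP is a particulate β-glucan from yeast. By the methods of the study, mice were C57BL/6J, male and female, 6 to 8 weeks old, and WGP was a single intraperitoneal dose of 1 mg. The sources do not give how many mice went into a library, or on which day the PBS mice were taken. With 1 library per group there was no replicate check on any difference, no test was made, and the 95% intervals in parentheses are exact and describe counting error alone. Where 3 values follow each other they are in the order PBS, 3-day WGP, 7-day WGP.

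An antibody is built from a pair of identical heavy chains and a pair of identical light chains, and the heavy chain constant region sets its isotype. A naive B cell makes IgM and IgD from a single primary transcript that is spliced to Ighm or to Ighd. In class switching, the DNA between the variable exon and a downstream constant gene is cut out, so that the cell expresses IgG, IgE or IgA in place of IgM. Plasma cells secrete antibody, and Jchain joins IgM and IgA units into polymers that can be carried across epithelia into secretions such as bile and pancreatic juice. B-1 cells are innate-like B cells of the body cavities that make much of the natural IgM and carry high IgM and low IgD.

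The 8 heavy chain genes lie on the minus strand of chromosome 12 (GRCm38, GENCODE M21) in the order in which switching can reach them. Ighm (ENSMUSG00000076617) spans 113418558 to 113422730, Ighd (ENSMUSG00000104213) 113406604 to 113416324 and Ighg3 (ENSMUSG00000076615) 113356224 to 113361232. They are followed by Ighg1 (ENSMUSG00000076614, 113325240 to 113330523), Ighg2b (ENSMUSG00000076613, 113302965 to 113307933), Ighg2c (ENSMUSG00000076612, 113285325 to 113288932), Ighe (ENSMUSG00000087642, 113269260 to 113273248) and Igha (ENSMUSG00000095079, 113254830 to 113260236). Igkc (ENSMUSG00000076609) is a single exon on the plus strand of chromosome 6 at 70726435 to 70726966, and Jchain (ENSMUSG00000067149) has 4 exons on the minus strand of chromosome 5 at 88519809 to 88527891.

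The secreted heavy chains differ at their last codons, which is where Jchain attaches. IgM and IgA end in a tailpiece whose penultimate residue is a cysteine that bonds with Jchain, and the 4 IgG chains end without it. The last 60 coding bases of the secreted forms, from the GENCODE M21 transcripts, are shown 5′ to 3′ because the Jchain results below are split by these isotypes, and the cysteine codon is in capitals where it stands next to the last codon.
Ighm, chr12:113420870-113420929: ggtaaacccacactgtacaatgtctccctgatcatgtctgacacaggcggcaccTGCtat
Igha, chr12:113258771-113258830: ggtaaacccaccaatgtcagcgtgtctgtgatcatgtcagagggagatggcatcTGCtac
Ighg1, chr12:113328979-113329038: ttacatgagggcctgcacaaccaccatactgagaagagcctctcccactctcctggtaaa
Ighg2b, chr12:113306392-113306451: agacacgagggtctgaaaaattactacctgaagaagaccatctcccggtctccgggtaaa
Ighg2c, chr12:113287392-113287451: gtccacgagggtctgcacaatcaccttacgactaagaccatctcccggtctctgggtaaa
Ighg3, chr12:113359668-113359727: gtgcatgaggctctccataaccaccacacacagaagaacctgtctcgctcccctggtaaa
The closest pair, Ighg2b and Ighg2c, was 85.7% identical over the whole coding part and 76.5% over the last 300 coding bases, and no pair of these genes shared a run of 91 bases. A unique molecular identifier (UMI) marks 1 captured 3′ end, so the counts were not scaled by gene length, and membrane and secreted forms of a chain were counted together.

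The libraries held 52464690, 56849043 and 48219246 UMIs, and 5029, 4689 and 4035 barcodes were kept as cells, with at least 1000 UMIs, at most 30% mitochondrial UMIs and doublets removed. The classes below are clusters named from marker genes, with immunoglobulin genes and Jchain left out of the clustering, so that B cell and plasma cell stand for B-cell-like and plasma-cell-like throughout. The B cell class had 2071, 837 and 532 cells in 4 clusters, of which cluster 18 also carried T cell markers (226, 48 and 9 cells). The plasma cell class had 226, 530 and 67 cells in clusters 7 and 22, and all 10 plasma cell markers were raised in both. Cluster 22 (24, 114 and 4 cells) also carried genes of dividing cells, with Mki67 at 736, 350 and 574 CPM (UMIs of a gene scaled to the same total in every sum of cells), against 27.1, 42.7 and 46.1 CPM in cluster 7. Sex-linked transcripts showed mixed sexes. Among plasma cells, 73, 22 and 2 had Xist and no chromosome Y transcript (Xist cells) and 137, 414 and 59 had a Y transcript and no Xist (Y cells). Acinar-like cells, which should lack CD45, were present as 49, 97 and 31 cells. The pairs of libraries shared 7 (PBS and 3-day), 1 (PBS and 7-day) and 4 (3-day and 7-day) cell barcodes. Free RNA, taken from barcodes of 1 to 100 UMIs, was 4033894, 3941221 and 4641398 UMIs.

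IgM plasma cells were the large majority in every library, and their share was highest 3 days after WGP. Each plasma cell was given the isotype of the heavy chain gene that held at least 50% of its heavy chain UMIs, and every plasma cell could be assigned. IgM cells were 200 of 226 in PBS (88.5%, 83.6 to 92.35%), 522 of 530 in 3-day WGP (98.5%, 97.05 to 99.35%) and 60 of 67 in 7-day WGP (89.6%, 79.7 to 95.7%). IgA cells were 8, 2 and 4, or 3.54% (1.54 to 6.86%), 0.377% (0.0457 to 1.36%) and 5.97% (1.65 to 14.6%). IgG cells were 18, 6 and 3, or 7.97% (4.79 to 12.3%), 1.13% (0.417 to 2.45%) and 4.48% (0.933 to 12.5%). At 3 days the IgM share was thus 9.995 percentage points above PBS, the IgG share 6.83 points below and the IgA share 3.16 points below, and none of these 3 intervals overlapped that of PBS. At 7 days the differences were 1.06 points for IgM, -3.49 for IgG and 2.43 for IgA, and all 3 intervals overlapped those of PBS. In absolute cell numbers the switched cells were few in every library, so the shares of IgA and IgG rest on 2 to 18 cells.

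**Figure D1:**
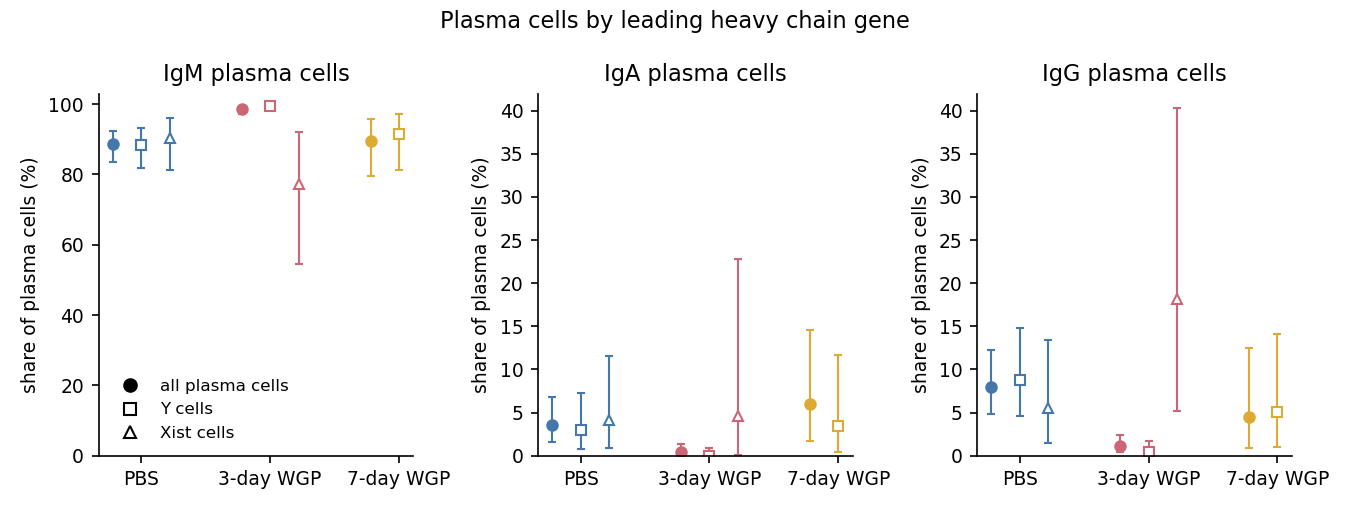
Share of plasma cells (%, y axis) led by IgM, IgA or IgG genes in each library (x axis). Filled circles are all plasma cells, squares Y cells and triangles Xist cells, bars are exact 95% binomial intervals, and the 2 Xist cells of 7-day WGP are not drawn. In 3-day WGP the IgM share was 98.5% over all cells, 99.5% in Y cells and 77.3% in the 22 Xist cells.

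The IgG cells of the libraries were led by different subclasses. IgG2c, the subclass that interferon-γ favours in C57BL/6 mice, led 12 of the 18 IgG cells in PBS, with 3 led by Ighg1, 2 by Ighg3 and 1 by Ighg2b. In 3-day WGP 3 were led by Ighg2b and 3 by Ighg2c, and in 7-day WGP all 3 were led by Ighg2b. These 3 cells of 7-day WGP all carried the same pair of variable genes, Ighv6-3 with Igkv10-96. Whether they descend from a single cell was not tested, and the intervals treat them as separate. No plasma cell was led by Ighd or Ighe in any library, which allows a share of up to 1.33%, 0.566% and 4.48% by 3 cells of the class, and up to 1.62%, 0.694% and 5.36% by the exact interval.

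The 3-day difference was present in Y cells and not in Xist cells. Within Y cells IgM led 121 of 137 in PBS (88.3%, 81.7 to 93.2%), 412 of 414 in 3-day WGP (99.5%, 98.3 to 99.9%) and 54 of 59 in 7-day WGP (91.5%, 81.3 to 97.2%). Within Xist cells it led 66 of 73 in PBS (90.4%, 81.2 to 96.1%) and 17 of 22 in 3-day WGP (77.3%, 54.6 to 92.2%), so the direction was the opposite one, on few cells and with overlapping intervals. The 2 Xist cells of 7-day WGP were both IgA. Of the 3-day plasma cells 22 of 530 were Xist cells, yet 4 of the 6 IgG cells of that library were Xist cells. The mix of sexes differs between the libraries and cannot be told apart from differences between mice.

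Dividing plasma cells showed the widest contrast. In cluster 22, IgM led 15 of 24 cells in PBS (62.5%, 40.6 to 81.2%) and 113 of 114 in 3-day WGP (99.1%, 95.2 to 99.98%), and IgG led 8 of 24 (33.3%, 15.6 to 55.3%) and 1 of 114 (0.877%, 0.0222 to 4.79%). Of the 4 such cells in 7-day WGP, 3 were IgM and 1 was IgA. In cluster 7, with few cycling transcripts, IgM led 91.6%, 98.3% and 90.5% of 202, 416 and 63 cells, so that 3-day WGP stayed highest without the dividing cells, while PBS and 7-day WGP changed places by a small margin.

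Most plasma cells expressed a single heavy chain gene to near exclusion of the others. The leading gene held a median of 99.97%, 100% and 100% of the heavy chain UMIs of a cell, from a median of 3150, 2911 and 6296 such UMIs per cell. It held under 80% in 7, 1 and 0 cells. Among IgM cells, 4 of 200, 1 of 522 and 0 of 60 had 20% or more of their heavy chain UMIs from switched genes. A second heavy chain was thus rare.

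Immunoglobulin transcripts filled much of the plasma cell transcriptome. The 10 genes together made up 45.9%, 42.9% and 61.0% of all UMIs of the class, and from 5.11% to 78.5%, 5.29% to 84.3% and 3.74% to 81.7% in single cells. CPM of all other genes is taken from the same total, and the median of all genes tested stood at a log2 ratio of -0.33 in plasma cells of 7-day WGP against PBS, and at -0.016 in those of 3-day WGP. Log2 ratios are WGP over PBS with 10 CPM added to each level, and a gene was counted as past 2-fold where the ratio was beyond 1 or -1, among genes with at least 20 UMIs over both libraries. Of all genes tested in plasma cells, 0.344% were past 2-fold in 3-day WGP (37 of 10762) and 3.84% in 7-day WGP (357 of 9299). Of the 9 immunoglobulin and Jchain genes with enough UMIs, 5 were past 2-fold at each time, with medians of -1.17 and 0.25. Ighe was below the UMI minimum.

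Ighm and Igkc, the most abundant transcripts of these cells, stayed within 2-fold as CPM, but not under every scaling. Ighm was at 101389 CPM (101158 to 101620), 113227 CPM (113067 to 113387) and 142838 CPM (142399 to 143279), which gave log2 ratios of 0.16 and 0.49. Igkc was at 310508, 284955 and 408249 CPM, with log2 ratios of -0.12 and 0.39. Jchain was at 34698, 28209 and 41171 CPM, with log2 ratios of -0.30 and 0.25. All 3 were highest in 7-day WGP. Scaled to UMIs outside immunoglobulin genes and Jchain, the 7-day ratios became 1.10 for Ighm, which is past 2-fold, 0.9986 for Igkc and 0.85 for Jchain, while those at 3 days were 0.075, -0.21 and -0.38. Scaled by the median ratio of genes between libraries (median-of-ratios factors), the 7-day ratios were 1.12 for Ighm, 1.02 for Igkc and 0.87 for Jchain. Those at 3 days were 0.21, -0.070 and -0.24.

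Igha, the heavy chain of mucosal antibody, was at 5997 CPM in PBS (5941 to 6054), 580 CPM in 3-day WGP (569 to 592) and 7228 CPM in 7-day WGP (7129 to 7328). The log2 ratios were -3.35 and 0.27. In PBS 3 cells held 50% of the Igha UMIs, and 2 cells did so in each WGP library. The 3-day ratio stayed below -1 in Y cells (-3.50) and in Xist cells (-1.81), whereas the 7-day ratio was -0.13 in Y cells.

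The 4 IgG genes fell into those that were low after WGP and Ighg2b, which was high at 7 days. Ighg2c was at 3346 CPM, 561 CPM and 6.70 CPM, with log2 ratios of -2.55 and -7.65, and 50% of its UMIs lay in 4 PBS cells, 2 3-day cells and 1 7-day cell. In Y cells the 3-day ratio was -4.60, and in Xist cells it was 8.64, with 2 of the 3 IgG2c cells of that library among the latter. Ighg3, an IgG made early against polysaccharides, was at 1439 CPM, 19.3 CPM and 1.76 CPM, with log2 ratios of -5.63 and -6.94. A single PBS cell held 50.6% of the Ighg3 UMIs, and within Y cells the ratios were -0.084 and -0.67. Ighg1, the subclass linked with type 2 responses, had 8182 UMIs in 7 PBS cells (1121 CPM) and 0 UMIs in the plasma cells of both WGP libraries. In UMIs, with 3 counts as the limit per library, this is at least 6364-fold lower at 3 days and 1060-fold at 7 days. Those bounds treat the UMIs of a cell as independent. Counted as cells, Ighg1 led 3 of 226 in PBS (1.33%, 0.275 to 3.83%). It led 0 of 530 at 3 days (up to 0.694%) and 0 of 67 at 7 days (up to 5.36%), with overlapping intervals. Of the PBS UMIs of Ighg1, 2 cells held 50% or more.

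Ighg2b was at 677 CPM (658 to 696), 1094 CPM (1078 to 1110) and 10472 CPM (10353 to 10591), with log2 ratios of 0.68 and 3.93. A single PBS cell, in cluster 22, held 98.2% of the PBS UMIs, and 2 cells held 50% in each WGP library. Leaving out the cell with the most Ighg2b UMIs in each library gave 4.88 and 8.27. The 3-day ratio was negative, at -1.09 with a minimum of 500 UMIs per barcode and at -1.02 without doublet removal. The 7-day ratio was 8.78 in Y cells and -7.53 in Xist cells, of which 7-day WGP had 2. The IgG levels therefore describe a handful of cells per library, in contrast to Ighm, where 57, 129 and 19 cells were needed to hold 50% of the UMIs.

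**Figure D2:**
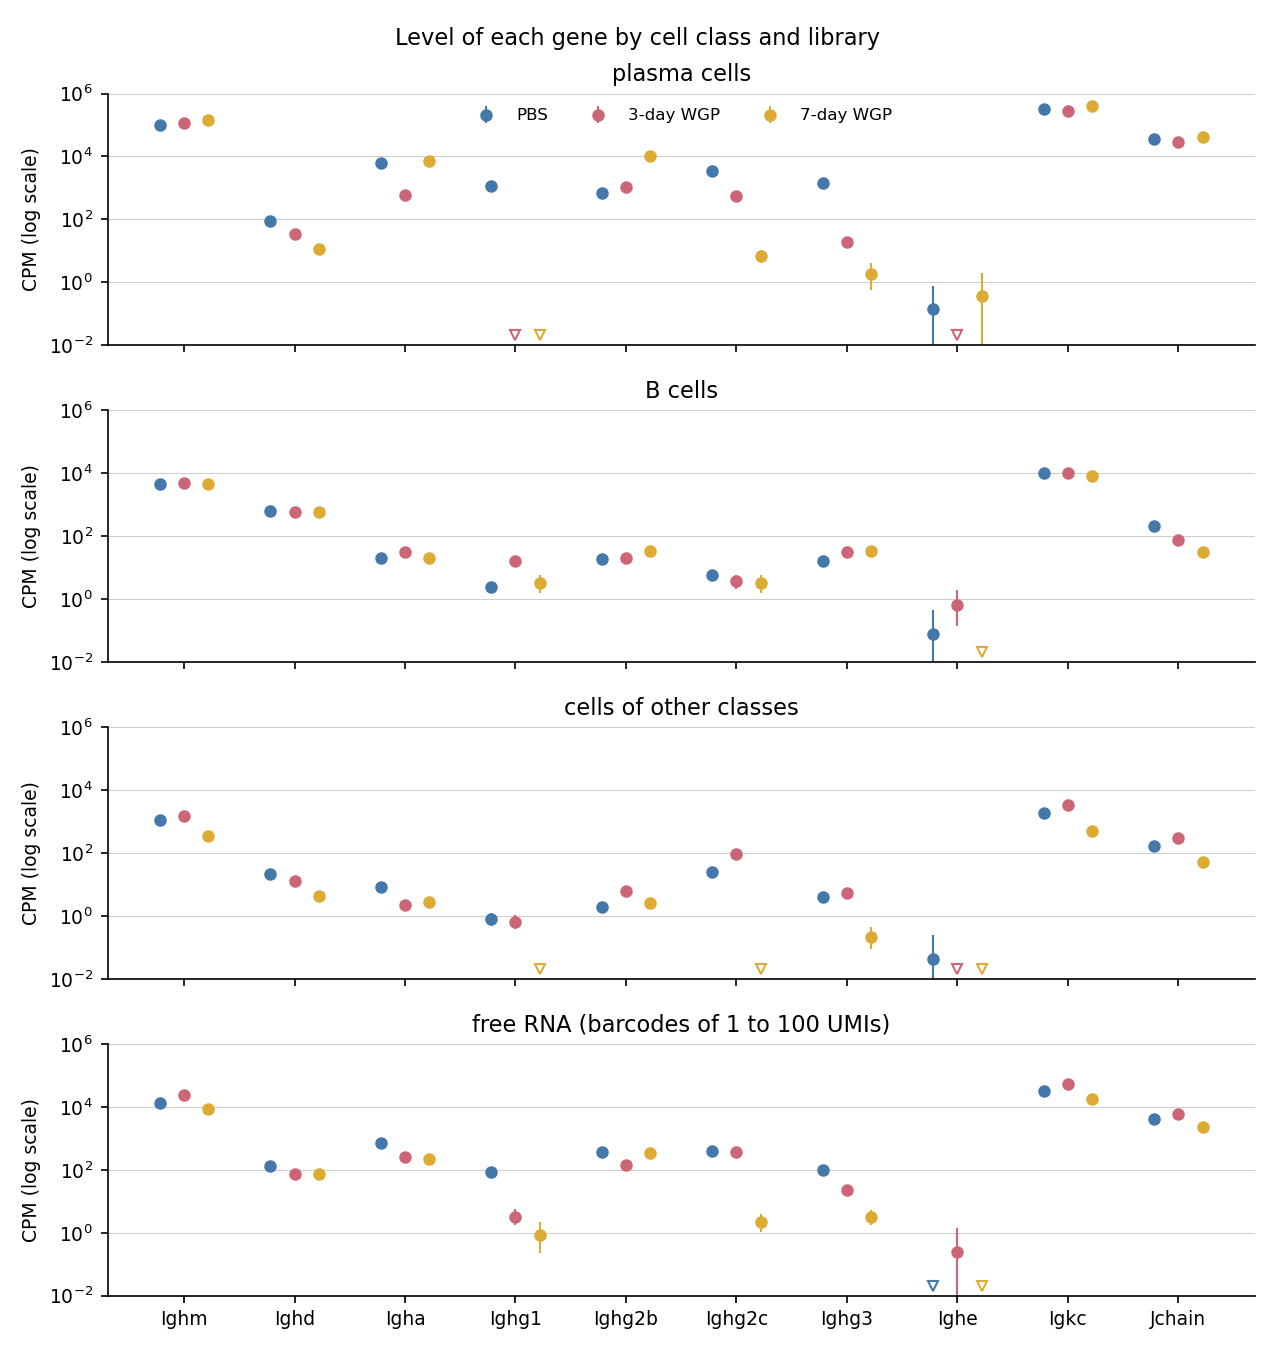
Level of each of the 10 genes (x axis) as CPM of the UMIs summed over a class (y axis, log scale) in each library, for plasma cells, B cells, cells of all other classes and free RNA. Bars are exact 95% Poisson intervals, mostly smaller than the points, and open triangles at the base mark 0 UMIs. Ighd stood higher in B cells (566 to 611 CPM) than in plasma cells (10.9 to 87.0 CPM) in each library.

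Ighd, which plasma cells shut off, was at 87.0 CPM (80.4 to 94.1), 33.1 CPM (30.4 to 35.9) and 10.9 CPM (7.43 to 15.5) in the plasma cell class, with log2 ratios of -1.17 and -2.21. At least 1 Ighd UMI was present in 62 of 200, 134 of 522 and 8 of 60 IgM plasma cells. In Xist cells the 3-day ratio was 0.0704. Ighe, the heavy chain of IgE, had 1, 0 and 1 UMIs in plasma cells and 1, 3 and 0 in B cells, at or below 3 counts in both classes in every library.

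Kappa was the light chain of nearly all plasma cells. A cell was called lambda-led where Iglc1, Iglc2 and Iglc3, the lambda constant genes, held more of its light chain constant UMIs than Igkc. Lambda led 5 of 226 plasma cells (2.21%, 0.722 to 5.09%), 10 of 530 (1.89%, 0.908 to 3.44%) and 6 of 67 (8.96%, 3.36 to 18.5%). All 3 lambda genes together were at 10434, 9305 and 38345 CPM, and in 7-day WGP these were mostly Iglc1 (20965 CPM) and Iglc2 (16440 CPM). Iglc2 and Iglc3 were 95.9% identical in their coding parts, so their split is uncertain. All 6 lambda-led cells of 7-day WGP were IgM. B cells were called lambda-led more often, at 13.1% (11.7 to 14.7%), 14.4% (12.1 to 17.0%) and 14.7% (11.8 to 18.02%). That call asked for 3 light chain UMIs in a B cell and 10 in a plasma cell. Most B cells carried UMIs of both light chains, with 20 to 80% lambda in 1076 of 2064, 496 of 831 and 294 of 524. This held for 4, 1 and 1 plasma cells, so the shares of both classes are not directly comparable.

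Jchain was found in every plasma cell, whatever its isotype, and at the highest level per heavy chain in IgA cells. Summed over IgM cells it stood at 30.7 (30.5 to 30.8), 24.4 (24.3 to 24.5) and 26.9 (26.7 to 27.1) UMIs per 100 heavy chain UMIs. In IgA cells it stood at 40.9 (40.2 to 41.7), 55.95 (53.4 to 58.7) and 30.8 (29.98 to 31.7), from 8, 2 and 4 cells. In IgG cells, whose heavy chains lack the penultimate cysteine codon in the sequences above, it stood at 18.2 (17.8 to 18.6), 19.0 (18.5 to 19.6) and 4.75 (4.50 to 5.01), from 18, 6 and 3 cells. The order IgA, IgM, IgG was the same in all 3 libraries. In PBS the ratio of IgA to IgM cells was 1.34 (1.31 to 1.36).

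Spread between cells was wide next to these differences. The median PBS cell had 31.7 Jchain UMIs per 100 heavy chain UMIs if IgM (quartiles 22.5 and 40.2), 36.3 if IgA (28.7 and 51.8) and 13.1 if IgG (9.13 and 21.3). The quartiles of IgM and IgA cells thus overlapped, and those of IgM and IgG cells did not. In 3-day WGP the median IgG cell was at 22.99 and the median IgM cell at 23.2, so the IgG medians lay below the IgM medians in PBS and 7-day WGP by a wide margin and in 3-day WGP by a narrow one. As CPM of all UMIs, Jchain of IgM cells was at 35854, 28167 and 42369, and of IgG cells at 13363, 24258 and 11331.

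**Figure D3:**
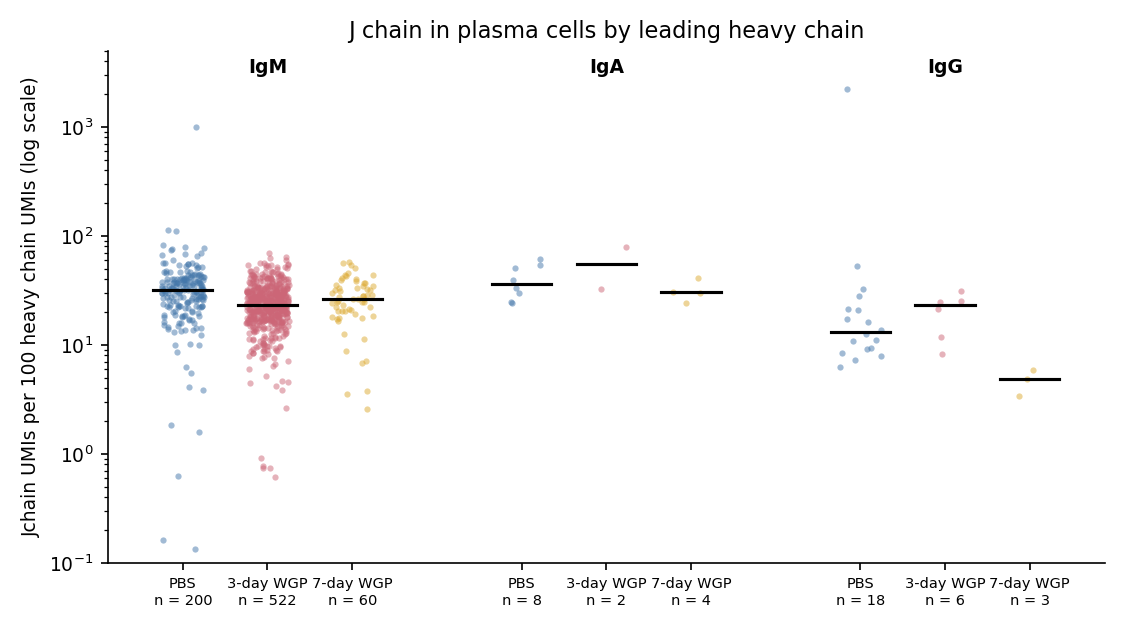
Jchain UMIs per 100 heavy chain UMIs (y axis, log scale) in single plasma cells, grouped on the x axis by leading heavy chain (IgM, IgA, IgG) and library. Points are cells, black lines are medians and n is the number of cells. The IgG medians of PBS (13.1) and 7-day WGP (4.84) lie below the IgM medians of the same libraries (31.7 and 26.5), while that of 3-day WGP (22.99) is near its IgM median of 23.2.

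A few variable genes made up most of those transcribed with these constant regions, although many were found. The heavy chain variable gene of a cell was assigned where it had at least 3 UMIs and 50% of all Ighv UMIs, which held for 83.6%, 66.0% and 95.5% of plasma cells, from a median of 9, 5 and 26 Ighv UMIs per cell. In all, 39, 35 and 21 Ighv genes were assigned to plasma cells, and the 3 most frequent took 52.9%, 82.0% and 59.4% of the assigned cells. Ighv11-2 led 74 of 189 assigned cells in PBS (39.2%, 32.2 to 46.5%), 173 of 350 in 3-day WGP (49.4%, 44.1 to 54.8%) and 26 of 64 in 7-day WGP (40.6%, 28.5 to 53.6%). Ighv12-3 came next, level with Ighv6-3 in 7-day WGP, at 8.47% (4.92 to 13.4%), 18.3% (14.4 to 22.7%) and 9.38% (3.52 to 19.3%). Every cell assigned to either gene was IgM, in all 3 libraries. Of the kappa genes, Igkv14-126 led 39.4%, 44.5% and 47.5% of assigned cells and Igkv4-91 led 8.33%, 18.6% and 10.2%. The effective number of Ighv genes, which discounts rare ones, was 5.77, 3.34 and 5.13.

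These 4 genes formed the leading pairs. Ighv11-2 with Igkv14-126 and Ighv12-3 with Igkv4-91 are known from B-1 cells that bind phosphatidylcholine, a lipid of cell and bacterial membranes. The germline ends of the paired genes, together with the pair that was found in 3-day WGP alone, are printed 5′ to 3′ as the 75 coding bases up to the conserved cysteine codon (capitals), at which the junction begins, with the coordinates of the whole gene in GRCm38 and its strand.
Ighv11-2, chr12:114048241-114048812, minus: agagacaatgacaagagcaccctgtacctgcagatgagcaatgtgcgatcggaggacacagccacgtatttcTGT
Igkv14-126, chr6:67896172-67896642, plus: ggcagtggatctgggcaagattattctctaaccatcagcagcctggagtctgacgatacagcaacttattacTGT
Ighv12-3, chr12:114366521-114366954, minus: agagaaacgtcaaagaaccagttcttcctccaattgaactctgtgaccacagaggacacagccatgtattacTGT
Igkv4-91, chr6:68768555-68769103, minus: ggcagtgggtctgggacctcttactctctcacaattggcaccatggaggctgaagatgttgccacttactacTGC
Ighv1-75, chr12:115833950-115834418, minus: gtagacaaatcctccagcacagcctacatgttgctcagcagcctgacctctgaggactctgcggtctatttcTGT
Igkv12-89, chr6:68834846-68835307, minus: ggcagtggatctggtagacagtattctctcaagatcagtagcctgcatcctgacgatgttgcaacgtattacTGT

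Plasma cells with both variable genes assigned (181, 320 and 58) carried 68, 58 and 25 distinct pairs. Among them, Ighv11-2 with Igkv14-126 was carried by 72 in PBS (39.8%, 32.6 to 47.3%), 146 in 3-day WGP (45.6%, 40.1 to 51.3%) and 26 in 7-day WGP (44.8%, 31.7 to 58.5%). Ighv12-3 with Igkv4-91 was carried by 15 (8.29%, 4.71 to 13.3%), 50 (15.6%, 11.8 to 20.1%) and 6 (10.3%, 3.89 to 21.2%). Both pairs together made up 48.1% (40.6 to 55.6%), 61.3% (55.7 to 66.6%) and 55.2% (41.5 to 68.3%) of the paired cells, and the interval of 3-day WGP lay above that of PBS by a narrow margin only. Within Y cells it was 54.3% (44.3 to 64.0%), 63.9% (57.6 to 69.8%) and 58.8% (44.2 to 72.4%), with overlapping intervals. There the first pair stood at 46.7%, 46.8% and 47.1%. Within Xist cells it stood at 27.7% of 65 (17.3 to 40.2%) in PBS and 2 of 18 in 3-day WGP. In dividing cells of cluster 22 it was found in 0 of 15 PBS cells, which allows up to 21.8% by the exact interval, and in 32 of 74 3-day cells (43.2%, 31.8 to 55.3%).

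A pair of genes separated 3-day WGP from the other libraries. Ighv1-75 with Igkv12-89 was carried by 40 of 320 cells of 3-day WGP (12.5%, 9.08 to 16.6%) and by 0 of 181 and 0 of 58 cells of PBS and 7-day WGP (up to 2.02% and 6.16%). All 40 were IgM, 30 were Y cells and 0 were Xist cells, and 11 of them lay in cluster 22. In 7-day WGP, Ighv6-3 with Igkv10-96 was carried by 3 of 58 cells, and by 0 cells of the other libraries. All 3 were Y cells, and they were the only IgG cells of 7-day WGP, led by Ighg2b. With 1 library per group, a pair that is found in a single library cannot be told apart from a pair of a single mouse. Counts of reads on variable genes are limited by hypermutation and by near-identical genes, and B cells had too few such UMIs to be assigned (7, 0 and 4 cells for Ighv).

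**Figure D4:**
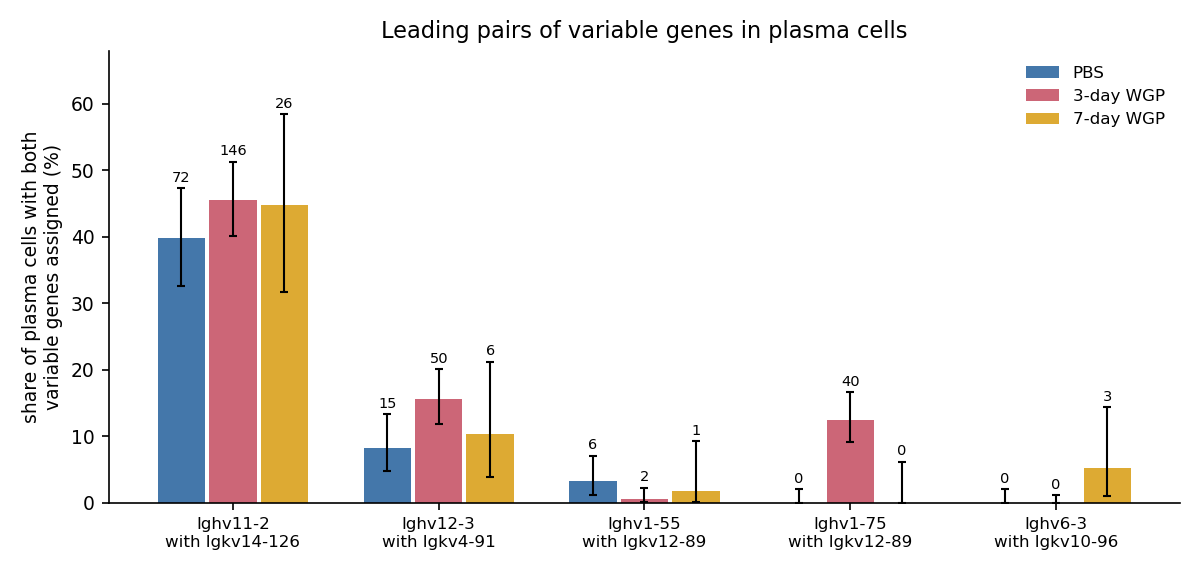
Share of plasma cells with both variable genes assigned (%, y axis) that carried each of 5 pairs of variable genes (x axis), by library. Bars start at 0, error bars are exact 95% binomial intervals and the numbers above are cells. Ighv11-2 with Igkv14-126 was the most frequent pair in each library, and Ighv1-75 with Igkv12-89 was seen in 3-day WGP alone.

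In B cells Ighm, Igkc and Jchain stood at lower levels than in plasma cells and Ighd at higher ones, and fewer of the members were past 2-fold. Of all genes tested, 0.123% were past 2-fold in 3-day WGP (13 of 10532) and 0.375% in 7-day WGP (39 of 10404), and of the 9 members tested 2 and 1 were. Ighm was at 4469, 4911 and 4440 CPM, with log2 ratios of 0.14 and -0.0092, and Igkc was at 10036, 9832 and 8322 CPM, with -0.030 and -0.27. Ighg1 was the member past 2-fold upward at 3 days, at 2.46, 16.7 and 3.21 CPM. Its 77 UMIs in 3-day WGP lay in 3 cells, of which 1 held 64.9%, and the log2 ratio of 1.10 fell to 0.41 without the highest cell of each library and was -0.34 in Y cells. Ighg3 was at 16.6, 31.5 and 33.4 CPM and Ighg2b at 18.4, 20.4 and 33.7 CPM, with log2 ratios between 0.10 and 0.71. Free RNA alone would give 1.35, 0.582 and 0.032 CPM of Ighg3 and 4.97, 3.61 and 3.43 CPM of Ighg2b in these cells, below the levels measured. Igha was at 20.6, 31.7 and 20.2 CPM, and Ighg2c at 5.71, 3.69 and 3.21 CPM.

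Ighd relative to Ighm separated the B cell subsets far more than it separated the libraries. Over all B cells there were 13.7 Ighd UMIs per 100 Ighm UMIs in PBS (13.3 to 13.99), 11.5 in 3-day WGP (11.1 to 12) and 13.6 in 7-day WGP (12.9 to 14.3). In follicular-like cells the values were 30.5 (29.5 to 31.5), 29.4 (27.8 to 30.9) and 30.9 (28.9 to 33.0), and all 3 intervals overlapped. In B-1-like cells they were 3.13 (2.90 to 3.38), 3.35 (3.03 to 3.69) and 4.63 (4.18 to 5.11). The 7-day value lay above PBS over all B-1-like cells and in Xist cells (1.76, 1.85 and 2.68), but in Y cells both WGP values lay below PBS (5.62, 3.89 and 4.85). Cells of sub-cluster 6, whose leading genes Vpreb1, Igll1 and Dntt mark precursor B cells, were unnamed by the fixed lists and stood at 7.34, 3.12 and 6.85. Subsets were clustered without the immunoglobulin genes.

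The make-up of the B cell class differed between the libraries, and in another order than the overall ratio did. B-1-like cells were 21.3% (19.6 to 23.2%), 31.7% (28.5 to 34.9%) and 36.5% (32.4 to 40.7%) of B cells, and follicular-like cells were 58.6%, 52.7% and 44.6%. Sex moved with it too. In PBS, Xist B cells had 5.27 Ighd UMIs per 100 Ighm UMIs (4.91 to 5.65) and were 62.8% B-1-like, and Y cells had 15.4 (14.9 to 15.8) and were 17.9% B-1-like. In 3-day WGP the values were 12.95 in Xist cells and 9.90 in Y cells, and in 7-day WGP 12.2 and 12.3. Xist and Y cells of PBS thus differed by more than the libraries did over all B cells. Of the 2071 PBS B cells, 301 were Xist cells, 1004 were Y cells and 764 had neither transcript. The overall ratio is therefore not an average over Xist and Y cells alone. Within follicular-like cells the ratio was 33.2, 38.9 and 31.9 in Xist cells and 28.5, 25.9 and 31.3 in Y cells.

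**Figure D5:**
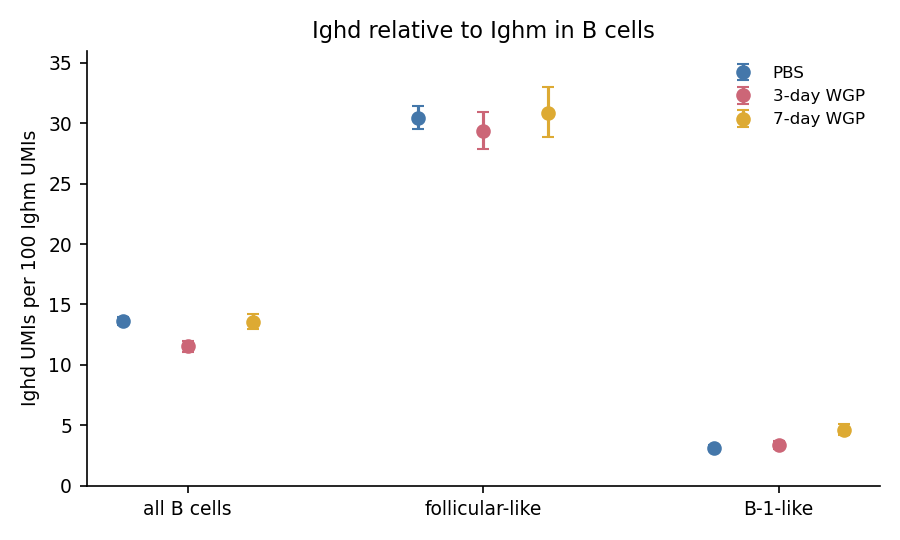
Ighd UMIs per 100 Ighm UMIs (y axis) summed over all B cells, follicular-like cells and B-1-like cells (x axis), by library. Error bars are 95% intervals from counts. The ratio lay between 29.4 and 30.9 in follicular-like cells and between 3.13 and 4.63 in B-1-like cells.

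Class-switched B cells were rare. A B cell with at least 3 heavy chain UMIs was called switched where Igha, Ighe and the IgG genes held at least 50% of them. This held for 10 of 2044 B cells in PBS (0.489%, 0.235 to 0.898%), 13 of 827 in 3-day WGP (1.57%, 0.840 to 2.67%) and 5 of 521 in 7-day WGP (0.960%, 0.312 to 2.23%), and all 3 intervals overlapped. The same rule called 1 of 127, 1 of 219 and 0 of 172 T cells with that many UMIs, at median depths of 3504, 4899 and 5942 UMIs against 3963, 4086 and 4860 UMIs in B cells. The B cell shares lay within the T cell intervals, which reach 4.31%, 2.52% and 2.12%, so the shares alone could not be told from that background at these numbers. Of NK cells with that many UMIs, the rule called 0 of 23, 0 of 121 and 0 of 68, with intervals up to 14.8%, 3.00% and 5.28%. Of monocyte/macrophages with that many UMIs, it called 1 of 469, 3 of 190 and 0 of 170. Their 3-day share of 1.58% (0.327 to 4.55%) was close to that of 3-day B cells. Monocyte/macrophages were deeper, at medians of 9926, 14045 and 10886 UMIs. The switched B cells had a median of 23, 18 and 11 heavy chain UMIs (lowest 6, 5 and 9), and Ighg3 and Ighg2b in B cells stood above the free RNA expectation, as given above. By leading gene they were IgG2b in 6 of 10 PBS cells, IgG3 in 5 and IgG1 in 3 of 13 3-day cells and IgG2b in 3 of 5 7-day cells. B-1-like cells held 6 of the 10, 7 of the 13 and 4 of the 5.

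Jchain in the B cell class was concentrated in few cells in PBS and otherwise near or below the level expected from free RNA. It was at 210 CPM in PBS, 78.0 CPM in 3-day WGP and 32.4 CPM in 7-day WGP, with log2 ratios of -1.32 and -2.38, so it was the member past 2-fold downward at both times. In PBS the highest cell held 42.6% of the Jchain UMIs and the next 22.6%, both of them in cluster 18. Without the 2 highest cells of each library the levels were 73.8, 73.7 and 27.5 CPM, and without cluster 18 they were 81.3, 78.3 and 27.3 CPM. The share of free RNA in the UMIs of B, T and NK cells was estimated at 1.35%, 2.49% and 0.990%, which alone would give 57.8, 147.9 and 23.3 CPM of Jchain in B cells. In 3-day WGP this expectation exceeded the level measured. Jchain was at 0.441 times its expectation in T cells and 0.493 times in NK cells of that library too, so the estimate is a rough guide there. At least 1 Jchain UMI was found in 6.18%, 9.08% and 3.01% of B cells thinned to 1000 UMIs, and in 4.68%, 8.11% and 2.53% of T cells, which should lack it, at median depths of 3963, 4086 and 4860 UMIs in B cells and 3504, 4899 and 5942 UMIs in T cells (20.5%, 27.8% and 12.2% against 15.2%, 22.4% and 8.11% without thinning). With thinning, the intervals of both classes overlapped in each library. Without thinning, those of PBS did not (18.8 to 22.3% in B cells, 12.2 to 18.7% in T cells).

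The isotypes in free RNA followed those of plasma cells for some genes and not for others. Ighm stood at 13977, 24620 and 8574 CPM, Igkc at 31769, 53927 and 17508 CPM and Jchain at 4287, 5931 and 2353 CPM, each highest in 3-day WGP, the library with the most plasma cells. Ighg1 was at 85.5, 3.30 and 0.862 CPM, Ighg2c at 410, 361 and 2.16 CPM, Ighg3 at 99.9, 23.3 and 3.23 CPM, Igha at 741, 262 and 219 CPM and Ighg2b at 368, 145 and 346 CPM. For Ighg2c and Ighg3 the order of the libraries was the same as in plasma cells and Ighg1 was highest in PBS in both, while for Igha and Ighg2b it was not. Ighd, with most of its UMIs in B cells, stood at 133, 75.1 and 75.2 CPM. In B cells the level expected from free RNA was 189, 614 and 84.9 CPM of Ighm and 429, 1344 and 173 CPM of Igkc, well under the levels measured, whereas that of Ighg2c was 5.53, 9.002 and 0.0213 CPM, above the level measured in 3-day WGP and close to it in PBS.

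Plasma cells held 90.1%, 96.8% and 94.2% of all Ighm UMIs in cells and 97.5%, 98.2% and 98.5% of all Jchain UMIs, and B cells held 87.2%, 73.8% and 91.7% of all Ighd UMIs. Outside these classes, single barcodes carried much of the signal. A barcode of the fibroblast class in 3-day WGP held 2517 Ighg2c UMIs, all of that class, and a barcode of the T cell class in PBS held 1520 Ighm UMIs, 64.6% of that class. In monocyte/macrophages of 7-day WGP a barcode held 2143 Ighm UMIs, or 60.7% of the class. All 3 barcodes also carried transcripts of plasma cell marker genes (86, 35 and 33 UMIs). In monocyte/macrophages of PBS, Ighm was spread over the class, and 61.8% of the cells had at least 3 heavy chain UMIs. There Ighm stood at 2.49 times and Igkc at 0.504 times the level expected from free RNA, with 44.3 Igkc UMIs per 100 heavy chain UMIs against 201 in free RNA of the same library. This was not particular to that class. In 7-day WGP, Ighm stood at 3.74 times in T cells and 2.56 times in NK cells, and Igkc at 0.909 and 0.462 times. The 5 highest cells held 11.99% and 8.10% of that Ighm. In 3-day WGP, Ighm was below the expectation in T cells, NK cells and monocyte/macrophages (0.917, 0.774 and 0.290 times).

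Genes outside the immunoglobulin loci whose levels followed Jchain and Ighd over 38 sums of class and library were ranked by Pearson correlation of log2(CPM + 10), as a description of points that share libraries. For Jchain these were Derl3 (r = 0.900), which acts in degradation from the endoplasmic reticulum, then Eaf2 (0.896), Pls1 (0.877), Prg2 (0.873) and Oosp1 (0.865). For Ighd these were Fcer2a (r = 0.966), the low-affinity IgE receptor of follicular B cells, Fcmr (0.943), the IgM Fc receptor, Pax5 (0.928) and Cr2 (0.918).

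Other genes of the pathway moved less than the isotypes. Of 15 genes of the B cell receptor and its co-receptors, 0 were past 2-fold in plasma cells of 3-day WGP, with a median log2 ratio of -0.11, and 3 of 14 tested were lower in 7-day WGP, with a median of -0.72 beside -0.33 over all genes. Among them were the inhibitory receptor Cd22 (21.4 CPM in PBS, 2.47 CPM in 7-day WGP, log2 ratio -1.33) and the kinase Lyn (38.2 and 14.1 CPM, -1.001). Of the 21 genes of the plasma cell program, 1 was lower in 3-day WGP and 0 in 7-day WGP. It was Ccr10, a chemokine receptor that guides plasma cells, many of them IgA+, to mucosal sites, which was at 27.1 CPM in PBS and 5.17 CPM in 3-day WGP (log2 ratio -1.29). Fkbp11 and Mzb1, which serve the folding of secreted antibody, had log2 ratios of 0.92 and 0.76 there, from 216 to 418 CPM and from 2601 to 4413 CPM. Of 19 genes of class switching and its helper receptors, 18 were tested and 0 were past 2-fold in either class at either time. In B cells 0 genes of the 3 lists were past 2-fold, and the largest ratio was that of the chaperone Hspa5 in 3-day WGP (607 and 340 CPM, -0.82). Over all genes tested, the shares past 2-fold at 3 and 7 days were 0.344% and 3.84% in plasma cells. In B cells they were 0.123% and 0.375%. A count of 0 in lists of this size is thus not particular to them.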

How the data were processed

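Single-cell RNA was measured in 3 libraries of sorted pancreas CD45+ cells. The deposited values are UMI counts per gene and barcode, made by the authors with Cell Ranger 3.1.0 on the mm10 reference (GRCm38), as raw matrices of all barcodes. The libraries held 48219246 to 56849043 UMIs, and 0 value columns were left unused. Barcodes with at least 1000 UMIs and at most 30% mitochondrial UMIs were kept. Scrublet in scanpy 1.11.5 marked 0, 4 and 4 doublets by its automatic threshold, so the highest scores were removed up to 0.8% per 1000 barcodes (220, 190 and 139). Cells were clustered with leidenalg 0.10.2 at a resolution of 1 on 30 principal components of 3000 variable genes, without immunoglobulin genes and Jchain, and clusters were named from marker lists. Levels are CPM of UMIs summed per class, and log2 ratios carry an added 10 CPM. Intervals are exact binomial or Poisson (scipy 1.17.1) and cover counting error only, since 1 library per group allowed no test. The scripts were checked on simulated data.

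Named genes were the 10 members, Iglc1 to Iglc3, the 3 Ighv and 3 Igkv genes assigned to the most plasma cells of each library, the 5 genes most correlated with Jchain and with Ighd, and up to 3 genes per list with the largest ratio. Some genes that this rule names are not reported here. The single barcodes and sub-clusters described were chosen after their values were seen. The members, lists and tests were chosen with earlier results of these data known. Alternatives covered the limits on barcodes, doublets, clustering, scaling, the added CPM, free RNA and the sex-linked split. Those on clusters 18, 22 and 30 and on the highest cell were chosen after seeing the data.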

Additional observations from a re-analysis of the deposited data

Results flagged for a closer look

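In plasma cells, 3 of the 10 genes moved one way at 3 days and the other way at 7 days against PBS, with UMI counting intervals on opposite sides of 0. These intervals treat UMIs as independent, while 3, 2 and 2 cells held 50% of the Igha UMIs. Counted as cells, IgA led 3.54% (1.54 to 6.86%) in PBS and 5.97% (1.65 to 14.6%) in 7-day WGP. Those intervals overlapped, so a 7-day rise of Igha was not shown at the level of cells. The difference between the times was not tested, since each time had 1 library. Igha had a log2 ratio of -3.35 at 3 days and 0.27 at 7 days, Igkc of -0.12 and 0.39, and Jchain of -0.30 and 0.25. Within Y cells the ratios were -3.50 and -0.13 for Igha and 0.074 and 0.58 for Igkc, so that neither gene kept opposite signs as above, while Jchain had -0.19 and 0.38.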

How the results depend on the processing

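No paired analysis was possible because each group had 1 library. Replicates could not be left out for the same reason. Of the values that answer a comparison, 239 stayed within the counting interval or within 1.5 times the count, and 52 did not. The cause of these was not tested. The study removed barcodes with high counts as possible doublets. With barcodes above the knee removed, too few plasma cells were left in PBS and 7-day WGP for shares. The plasma cell ratios of that setting therefore rest on few cells. Removing barcodes above the knee (10591 UMIs) left 18 plasma cells in 3-day WGP, with IgM at 100%, IgA at 0% and IgG at 0%. It put Ighd per 100 Ighm UMIs at 20.4, 14.9 and 16.95, turned the 3-day ratios of Ighd (0.81), Ighg2c (0.81) and Ighg3 (2.47) in plasma cells and Jchain (0.63) in B cells, and gave 158 of 576 and 111 of 146 genes past 2-fold in plasma cells, with 0 and 1 members, and 1 and 0 members in B cells. In Xist cells the 3-day shares were IgM 77.3%, IgA 4.55% and IgG 18.2%, switched B cells were 2.78%, and Ighd per 100 Ighm UMIs was 5.27, 12.95 and 12.2. There the ratios of Ighd (0.0704) and Ighg2c (8.64) at 3 days and Ighg2b (-7.53) and Ighg2c (3.82) at 7 days turned in plasma cells. In Y cells the 3-day IgM share was 99.5% and the IgA share 0%, Ighd per 100 Ighm UMIs was 15.4, 9.90 and 12.3, and Ighg1 in 3-day B cells turned to -0.34. Members past 2-fold in 7-day B cells were 3 in Xist cells and 2 in Y cells. Genes past 2-fold (main counts of 37 and 357 in plasma cells and 13 and 39 in B cells) became 521, 1834, 48 and 92 in Xist cells, 75, 917, 22 and 77 in Y cells and 253, 2275, 106 and 304 with 1 CPM added. They became 68 at 3 days in plasma cells with scaling outside immunoglobulin genes, and in plasma cells at 7 days 153 with median-of-ratios factors and 236 without doublet removal. Ighd per 100 Ighm UMIs was 12.9, 10.3 and 11.5 with a minimum of 500 UMIs, 14.2 and 13.1 in PBS and 3-day WGP with free RNA subtracted, and 13.2 in PBS without doublet removal. The 3-day value stayed below PBS in each of these settings that gave both, other than Xist cells. Members past 2-fold in 3-day B cells were 1 with a minimum of 500 UMIs, 1 without cluster 18 and 0 without each member's highest cell, and 18 genes were past 2-fold at 7 days without cluster 18. Without cluster 22 the Jchain ratio of IgA to IgM cells was 1.38. Depth limits the rare isotypes most, with 67 plasma cells in 7-day WGP and 2 to 18 IgA or IgG cells per library.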
